A study of Danio rerio with 20 samples.

Results

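Lymphocytes and neutrophils are blood-borne white cells that are scarce in the undisturbed brain, where the resident immune cells are microglia. T cells read antigen through a receptor that signals by the kinases Lck and Zap70 with help from the coreceptors Cd4 and Cd8, and B cells signal through Cd79, Syk, Btk and Blnk. Rag proteins cut the genes of both receptors for recombination, and cytokine receptors of the interleukin 2 and interleukin 7 family keep lymphocytes alive. Neutrophils carry lysozyme and proteases and depend on the receptor of granulocyte colony-stimulating factor. The genes described here are 35 symbols of these cells, looked up by name in the deposited count table of zebrafish (Danio rerio) brain. Of these, 31 matched a gene and 4 (ikzf3, ctla4, mpx and cd3eap) are not analysed here. The symbol cd3eap resembles that of a T cell receptor chain but is known for a subunit of RNA polymerase I. Among the 31 matched genes, 28 reached 10 counts in at least 5 libraries, namely 22 lymphocyte and 6 neutrophil genes, out of 21207 genes that did so in the whole table of 32105. The 3 that fell short were cd28, cd79a and cd79b.

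RNA was sequenced from whole brains of male fish with the strain label AB JxTu, in 20 libraries of 5 per group. The groups were 3-year fish with the perturbation label swim-tunnel (exercised), 3-year fish with the label none (unexercised), 1-year exercised fish and 1-year unexercised fish. The sources used here do not give how long or how hard the fish swam, or the time between swimming and sampling. Library totals ranged from 23.4 to 34.6 M counts. In whole tissue, fewer cells of a type and less RNA per cell cannot be told apart. Replicate numbers follow the order of deposit and only name libraries. Nothing in the labels ties each library to its own fish, and the p-values below therefore describe how these samples vary. The 17 genes of a neuronal list averaged 7.55 to 8.22 on the log2 CPM scale (CPM, the counts of a gene scaled to a common library total, with totals adjusted by the TMM method) in every library, while the 22 lymphocyte genes averaged 0.29 to 2.89.

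Per gene length, most of these genes were expressed at a low level. As RPKM recomputed from the counts and averaged over the 20 libraries, 3 genes stood highest, each of which is also used outside lymphocytes. They were gata3 (33.2 RPKM), a transcription factor of helper T cells that also acts in neurons, nccrp1 (16 RPKM), named for a receptor of fish cytotoxic cells, and syk (6.92 RPKM), a kinase of B cell and myeloid receptors. Next came the lysozyme gene lyz (5.12 RPKM), the Ikaros factor gene ikzf1 (2.82 RPKM), the common gamma chain gene il2rga (2.76 RPKM), il7r (2.31 RPKM), mmp9 and zap70 (2.06 RPKM each), cd8a (1.88 RPKM), il1b (1.68 RPKM), lck (1.46 RPKM), csf3r (1.22 RPKM), il2rb (1.19 RPKM), btk (1.13 RPKM) and foxp3a (1.07 RPKM). Below 1 RPKM lay cd8b (0.793), cd4-1 (0.633), rag2 (0.558), adam8a (0.542), tbx21 (0.499), pax5 (0.471), blnk (0.333), prf1.1 (0.330), mmp13a (0.264), runx3 (0.261) and rag1 (0.154). The signalling chains of the B cell receptor, cd79a (0.327 RPKM) and cd79b (0.189 RPKM), and the T cell costimulator cd28 (0.132 RPKM) were low in every library, with at most 0.994, 0.340 and 0.589 CPM in any library. The order of neighbouring genes in this list is a description only.

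**Figure D1:**
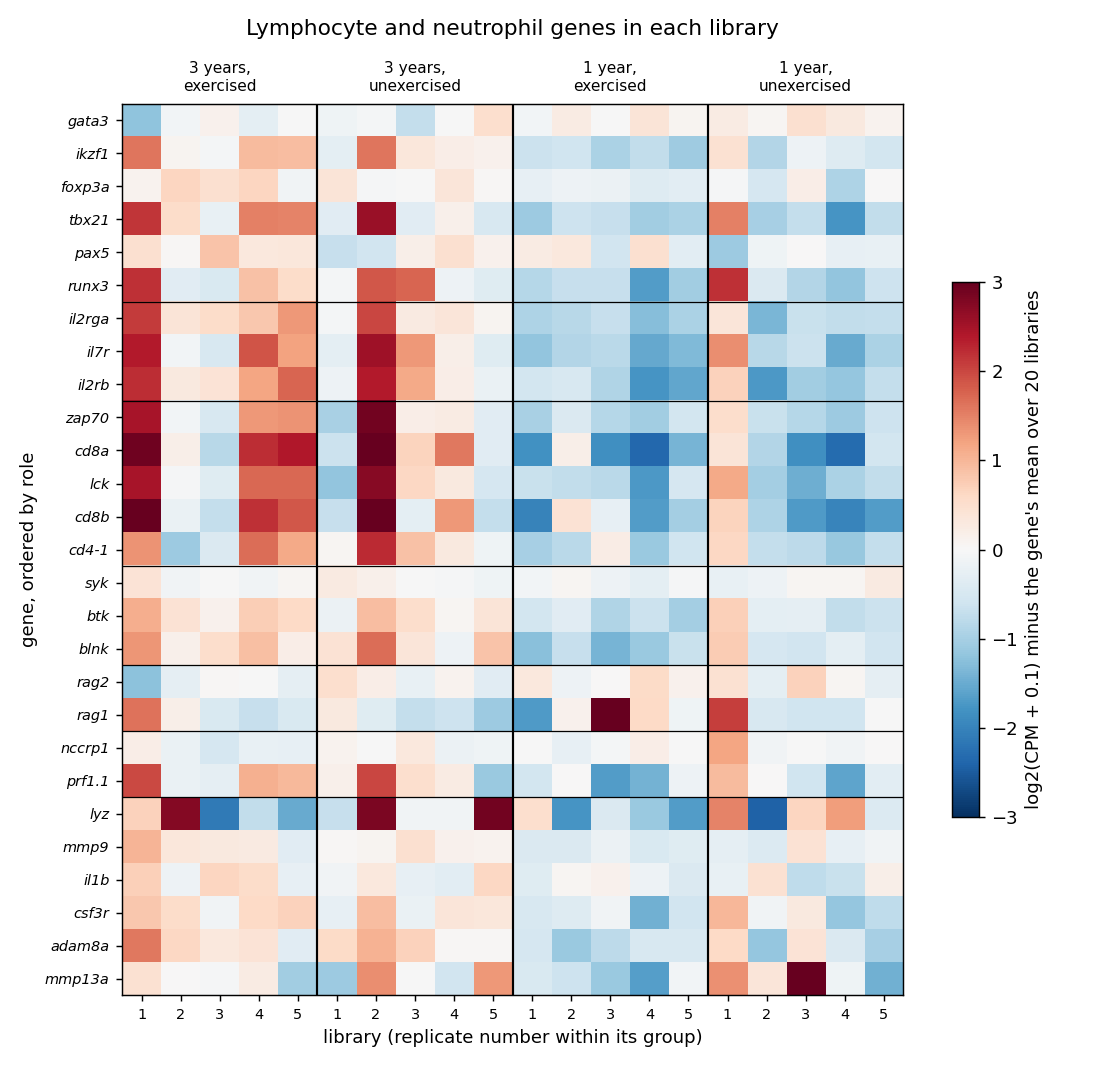
Heat map of 27 of the 28 genes that passed the filter (vertical axis, grouped by role) in the 20 libraries (horizontal axis, replicate number within each group). Colour is log2(CPM + 0.1) minus the gene's mean, red for higher and blue for lower. The T cell genes and cytokine receptor genes were reddest in 3-year exercised replicates 1, 4 and 5 and in 3-year unexercised replicate 2.

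In exercised fish, 12 of the 28 genes rose with age and none fell. Of all 21207 genes, 6.71% were called higher in this comparison. The 12 were 10 of 22 lymphocyte genes and 2 of 6 neutrophil genes. The 10 include cd8a, which, like cd8b, did not reach the filter within the 1-year libraries and passed it through 3-year ones. Among the 26 genes that passed within each age, 11 were called (median log2 fold change 1.48). The median log2 fold change, 3-year exercised over 1-year exercised, was 1.60 for the 28 genes (1.87 for lymphocyte and 0.98 for neutrophil genes), beside 0.01 for all genes. Of the 28 values 24 were positive, beside 51.3% of all genes. With DESeq2, 17 of the 28 were called, beside 16.2% of all genes with an adjusted p from that tool, counted in either direction. The share of all genes called in either direction with edgeR was 10.6%. Calls here and below are at an adjusted p below 0.05 from edgeR's quasi-likelihood test with Benjamini-Hochberg adjustment over all 21207 genes. For 11 of the 28 genes all 5 of the 3-year exercised libraries lay above all 5 of the 1-year exercised ones, beside 6.96% of all genes. In the RefSeq annotation 9 of the 12 called genes overlap another gene (all but ikzf1, il2rga and tbx21), and since the library kit does not mark strand, their counts can hold reads of that neighbour.

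In unexercised fish, no gene of the list was called with edgeR, beside 0.58% of all genes. At an unadjusted p below 0.05 there were 9 of the 28, beside 14.1% of all genes. That count was 0 without 3-year unexercised replicate 2, where 10.9% of all genes were below 0.05, and 15 without 1-year unexercised replicate 1, beside 16.9%. DESeq2 called 1 (cd8a), beside 2.54% of all genes. That gene and cd8b, both among the 9, did not reach the filter within the 1-year libraries. For the 26 genes that passed within each age the median log2 fold change was 0.64. The median log2 fold change, 3-year over 1-year, was 0.76 (0.94 for lymphocyte and 0.26 for neutrophil genes), beside -0.003 for all genes. Of the 28 values 23 were positive, beside 49.5% of all genes. Both groups overlapped for every one of the 28 genes, where 1.23% of all genes had no overlap and were higher at 3 years. The difference between the age effects of exercised and unexercised fish, which is the same contrast as the difference of the exercise effects, was called for 0 of the 28 genes.

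Averaged over both exercise groups, 16 of the 28 genes rose with age and none fell, beside 9.61% of all genes called higher. The 4 genes called here and not in exercised fish alone were cd4-1, cd8b, foxp3a and zap70. DESeq2 called 18 of the 28, beside 22.3% of all genes in either direction. With edgeR, 16.9% of all genes were called in either direction. By class, 14 of 22 lymphocyte genes (median log2 fold change 1.4) and 2 of 6 neutrophil genes (median 0.60) were called. The 14 lymphocyte genes include cd8a and cd8b, which did not reach the filter within the 1-year libraries. Among the 26 genes that passed within each age, 14 were called (median 1.14). The average over exercise draws on the same libraries as the comparisons within each exercise group.

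**Figure D2:**
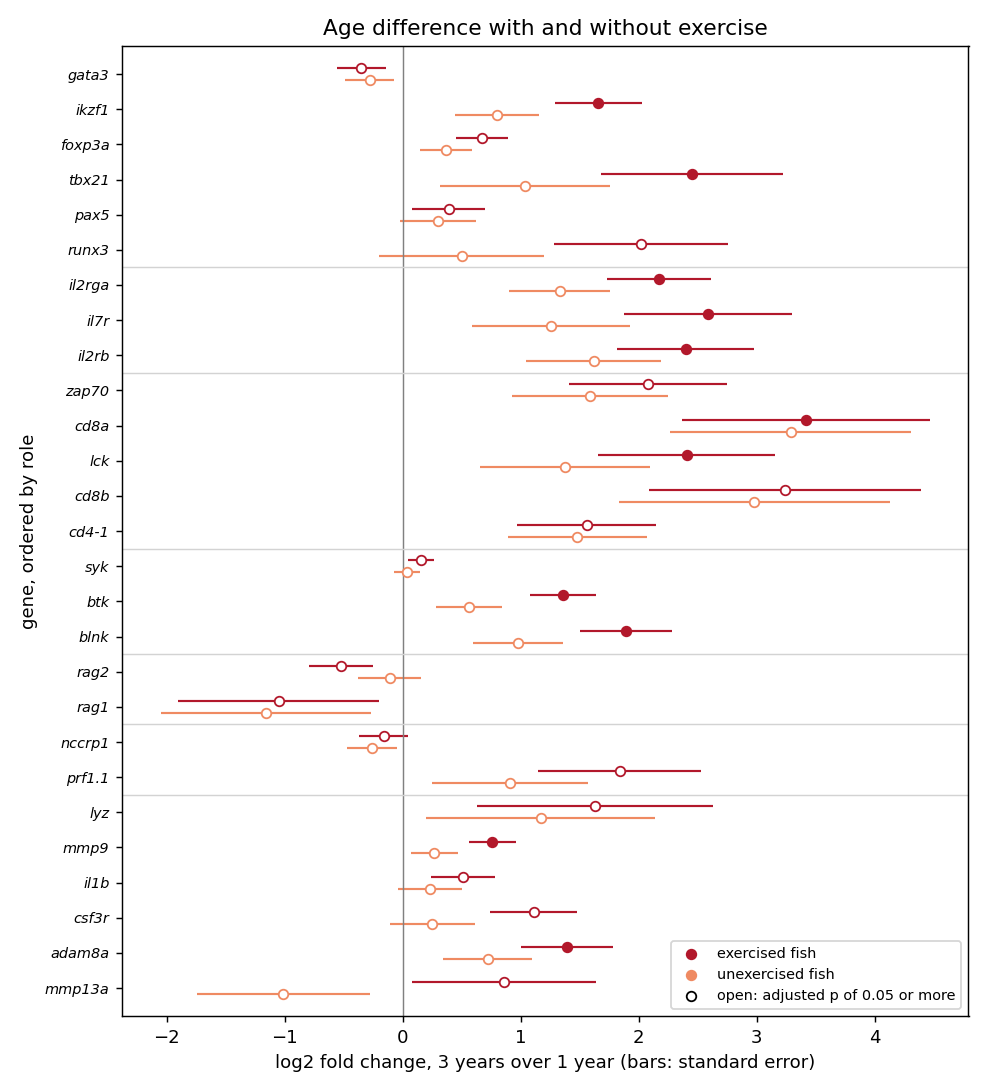
Log2 fold change of 3-year over 1-year fish for 27 of the 28 genes (horizontal axis; genes by role on the vertical axis), in exercised fish (dark red, upper point of each pair) and unexercised fish (orange, lower point), with standard errors. Filled points passed the test; 11 of the genes drawn did in exercised fish and 0 in unexercised fish.

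All 6 T cell receptor signalling and coreceptor genes rose with age when averaged over exercise, beside 9.61% of all genes. Of the 6, cd8a and cd8b reached 10 counts in 4 and 3 of the 10 1-year libraries, fewer than the 5 the filter asks for, and passed it through 3-year libraries in which they were high. Among the 26 genes of the whole list that passed within each age, 11 were called in exercised fish (median log2 fold change 1.48) and 14 in the average (median 1.14). The genes cd8a and cd8b encode the chains of the coreceptor for class I major histocompatibility molecules and neighbour each other in the RefSeq annotation. cd8a (ENSDARG00000044797) had 7.77, 1.07, 0.49, 4.74 and 5.41 CPM in 3-year exercised libraries, against 0.197, 1.07, 0.193, 0.103 and 0.299 CPM in 1-year exercised ones. Among unexercised fish, the 3-year libraries had 0.564, 20.1, 1.55, 3.02 and 0.726 CPM, against 1.26, 0.469, 0.191, 0.11 and 0.607 CPM in 1-year unexercised ones. The 3-year exercised libraries were high in replicates 1, 4 and 5 and near the 1-year level in 2 and 3, and 20.1 CPM in 3-year unexercised replicate 2 was the highest value of any library. The log2 fold change of cd8a was 3.35 ± 0.73 averaged over exercise (SE; adjusted p = 0.005), 3.42 ± 1.05 in exercised fish (adjusted p = 0.0433) and 3.29 ± 1.02 in unexercised fish (adjusted p = 0.163). Without 3-year unexercised replicate 2 the unexercised value was 1.46 and the averaged one 2.44 (adjusted p = 0.011). In exercised fish the value was 2.98 without 3-year replicate 1 and 4.26 without 1-year replicate 2, and the call was lost in 7 of 10 fits that left out 1 library. cd8b (ENSDARG00000058682) had 6.88, 0.366, 0.229, 2.34 and 1.84 CPM in 3-year exercised libraries, against 0.0328, 0.625, 0.355, 0.0688 and 0.166 CPM in 1-year exercised ones. The 3-year unexercised libraries had 0.232, 6.73, 0.34, 1.22 and 0.229 CPM, against 0.749, 0.18, 0.0638, 0.0366 and 0.0675 CPM in 1-year unexercised ones. The same libraries led as for cd8a, both age pairs overlapped, and the averaged log2 fold change was 3.11 ± 0.81 (adjusted p = 0.014), or 2.21 without 3-year unexercised replicate 2.

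The gene cd4-1 encodes the coreceptor for class II molecules. cd4-1 (ENSDARG00000070668) had 2.72, 0.423, 0.719, 3.41 and 2.34 CPM in 3-year exercised libraries, against 0.459, 0.536, 1.19, 0.413 and 0.631 CPM in 1-year exercised ones. Without exercise, 3-year libraries had 1.06, 5.16, 1.93, 1.26 and 0.917 CPM, against 1.6, 0.577, 0.542, 0.403 and 0.573 CPM in 1-year unexercised ones. The groups overlapped at both exercise levels, and the averaged log2 fold change was 1.52 ± 0.42 (adjusted p = 0.0182). For lck, the kinase that starts T cell receptor signalling, the libraries of exercised fish did not overlap between ages. lck (ENSDARG00000102525) had 11.2, 1.89, 1.47, 6.61 and 6.61 CPM in 3-year exercised libraries, against 1.18, 1.12, 1.06, 0.516 and 1.33 CPM in 1-year exercised ones. For unexercised fish the 3-year libraries held 0.796, 13.3, 3.03, 2.37 and 1.34 CPM, against 4.36, 0.901, 0.638, 0.952 and 1.11 CPM in 1-year unexercised ones. Its log2 fold change was 2.41 ± 0.75 in exercised fish (adjusted p = 0.0457), 1.38 ± 0.72 in unexercised fish (adjusted p = 0.399) and 1.90 ± 0.52 averaged (adjusted p = 0.0176). Next in the cascade, zap70 encodes the kinase that docks on the phosphorylated receptor chains. zap70 (ENSDARG00000015752) had 19.9, 3.32, 2.48, 8.83 and 9.06 CPM in 3-year exercised libraries, against 1.74, 2.59, 1.9, 1.65 and 2.39 CPM in 1-year exercised ones. In 3-year unexercised libraries it had 1.73, 26.7, 4.05, 4.17 and 2.75 CPM, against 5.14, 2.16, 1.91, 1.61 and 2.26 CPM in 1-year unexercised ones. It overlapped between ages in both pairs, and its log2 fold change was 1.84 ± 0.47 averaged (adjusted p = 0.0127) and 2.08 ± 0.67 in exercised fish, where it did not pass (adjusted p = 0.0548). Without 3-year unexercised replicate 2 the averaged value was 1.18 and still passed.

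Summed over the 5 genes cd8a, cd8b, cd4-1, lck and zap70, the 3-year exercised libraries held 48.4, 7.07, 5.39, 25.9 and 25.3 CPM, and the 1-year exercised ones 3.61, 5.94, 4.71, 2.75 and 4.81 CPM. The 3-year unexercised libraries held 4.38, 71.9, 10.9, 12 and 5.96 CPM, and the 1-year unexercised ones 13.1, 4.29, 3.35, 3.11 and 4.62 CPM. Above all 1-year libraries lay 3-year exercised replicates 1, 4 and 5 and, among 3-year unexercised libraries, replicate 2 alone. The other 3-year libraries of both groups lay below the 13.1 CPM of 1-year unexercised replicate 1. Of the 5 genes, cd8a and cd8b passed the filter only through 3-year libraries in which they were high. The sum therefore describes levels and adds no separate evidence of a rise with age.

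**Figure D3:**
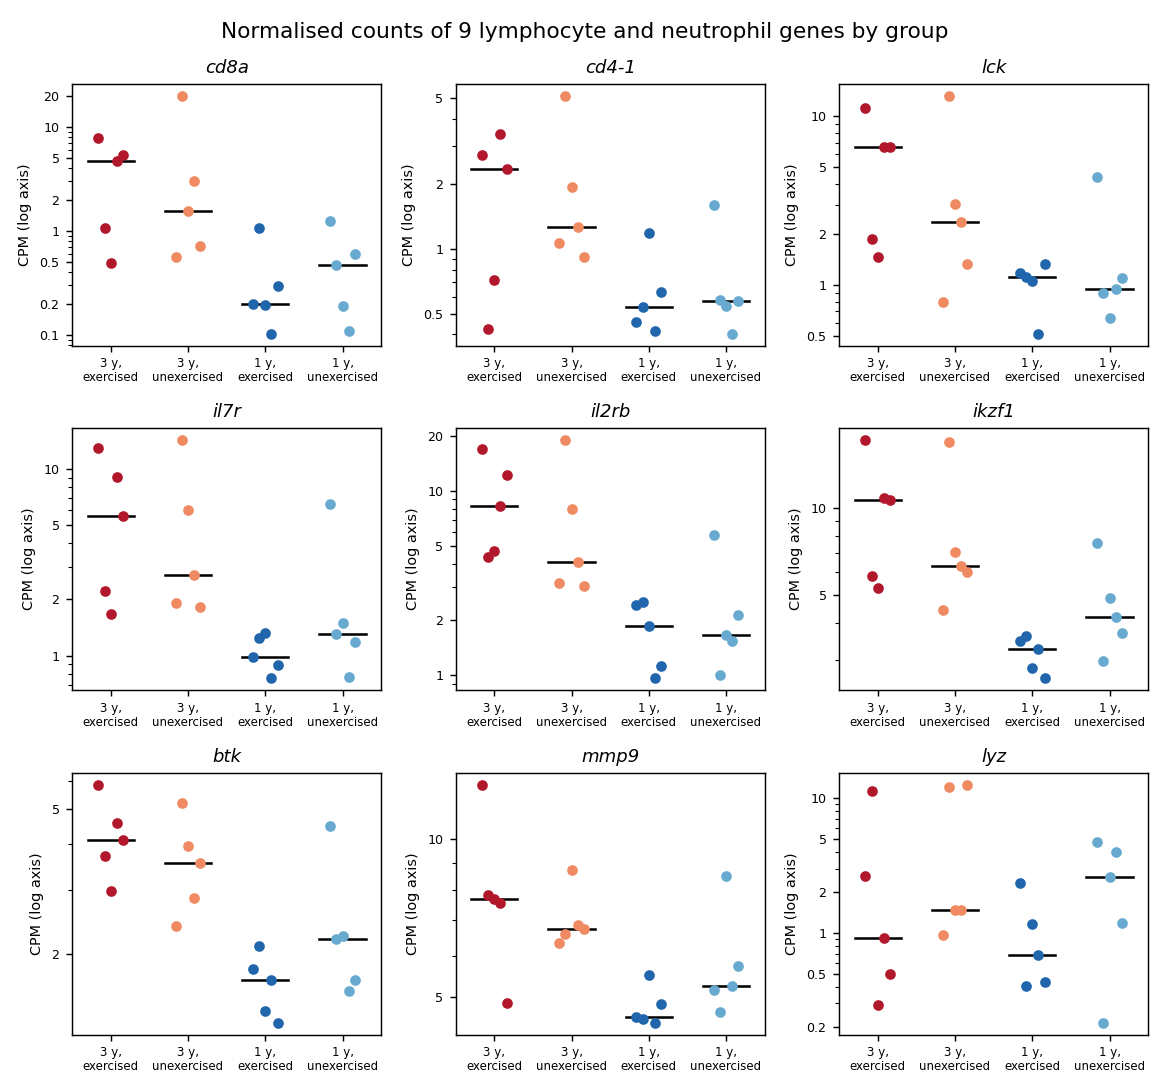
Normalised counts (CPM, log axis) of 9 genes by group. Each point is a library and each bar the group median. For cd8a, cd4-1, lck, il7r and il2rb the 3-year libraries spread widely, and in lyz the groups overlapped throughout.

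All 3 cytokine receptor genes rose with age in exercised fish and in the average, beside 6.71% and 9.61% of all genes called higher. The gene il2rga encodes the gamma chain shared by the receptors of several interleukins. il2rga (ENSDARG00000068858) had 10.5, 3.16, 3.56, 4.24 and 6.08 CPM in 3-year exercised libraries, against 1.21, 1.29, 1.45, 0.929 and 1.2 CPM in 1-year exercised ones. Among unexercised fish, the 3-year libraries had 2.29, 9.85, 2.91, 3.13 and 2.56 CPM, against 3.1, 0.865, 1.47, 1.39 and 1.42 CPM in 1-year unexercised ones. Every 3-year exercised library was above every 1-year exercised one. The log2 fold change of 2.17 ± 0.44 had the smallest adjusted p of the list in exercised fish (0.00756). Averaged over exercise the log2 fold change was 1.75 ± 0.31 (adjusted p = 0.00142). The unexercised fold change was 1.33 ± 0.43 (adjusted p = 0.177). The beta chain gene il2rb, whose product is shared by the interleukin 2 and interleukin 15 receptors, followed. il2rb (ENSDARG00000075720) had 16.9, 4.4, 4.74, 8.24 and 12.2 CPM in 3-year exercised libraries, against 2.4, 2.5, 1.84, 0.964 and 1.13 CPM in 1-year exercised ones. The 3-year unexercised libraries had 3.18, 18.9, 7.94, 4.1 and 3.06 CPM, against 5.79, 1.01, 1.66, 1.54 and 2.12 CPM in 1-year unexercised ones. Exercised libraries did not overlap between ages (log2 fold change 2.4 ± 0.58, adjusted p = 0.0163), and unexercised ones did (1.62 ± 0.57, adjusted p = 0.208). The interleukin 7 receptor gene il7r serves lymphocyte survival. il7r (ENSDARG00000078970) had 12.9, 2.23, 1.67, 9.04 and 5.61 CPM in 3-year exercised libraries, against 0.985, 1.25, 1.32, 0.757 and 0.896 CPM in 1-year exercised ones. Without exercise, 3-year libraries had 1.92, 14.3, 6.05, 2.69 and 1.83 CPM, against 6.47, 1.3, 1.5, 0.769 and 1.18 CPM in 1-year unexercised ones. Its exercised libraries did not overlap (log2 fold change 2.59 ± 0.71, adjusted p = 0.0267), and the unexercised ones did, with 1-year unexercised replicate 1 above 4 of the 5 3-year unexercised libraries.

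Of the 6 transcription factor genes, 2 rose in exercised fish and 3 in the average, beside 6.71% and 9.61% of all genes. The Ikaros gene ikzf1 is needed for lymphocyte development. ikzf1 (ENSDARG00000013539) had 17.1, 5.83, 5.29, 10.8 and 10.6 CPM in 3-year exercised libraries, against 3.48, 3.62, 2.81, 3.27 and 2.59 CPM in 1-year exercised ones. For unexercised fish the 3-year libraries held 4.45, 16.9, 7.04, 6.32 and 6.0 CPM, against 7.59, 2.96, 4.91, 4.21 and 3.71 CPM in 1-year unexercised ones. All 3-year exercised libraries lay above all 1-year exercised ones (log2 fold change 1.66 ± 0.37, adjusted p = 0.0111), and the averaged log2 fold change was 1.23 ± 0.26 (adjusted p = 0.00382). The T-bet gene tbx21 directs type 1 helper T cells and natural killer cells. tbx21 (ENSDARG00000004473) had 3.64, 1.13, 0.621, 2.31 and 2.25 CPM in 3-year exercised libraries, against 0.295, 0.446, 0.419, 0.31 and 0.332 CPM in 1-year exercised ones. In 3-year unexercised libraries it had 0.564, 4.94, 0.567, 0.826 and 0.497 CPM, against 2.31, 0.324, 0.415, 0.147 and 0.405 CPM in 1-year unexercised ones. Its exercised libraries did not overlap between ages (log2 fold change 2.45 ± 0.77, adjusted p = 0.0473; averaged 1.75 ± 0.53, adjusted p = 0.0291). Without 3-year unexercised replicate 2 the averaged value was 1.11 and did not pass. The regulatory T cell factor gene foxp3a overlapped in unexercised fish and did not overlap in exercised fish. foxp3a (ENSDARG00000055750) had 1.99, 2.93, 2.61, 2.93 and 1.7 CPM in 3-year exercised libraries, against 1.54, 1.65, 1.61, 1.38 and 1.46 CPM in 1-year exercised ones. Among unexercised fish, the 3-year libraries had 2.42, 1.79, 1.82, 2.41 and 1.87 CPM, against 1.8, 1.26, 2.11, 0.916 and 1.86 CPM in 1-year unexercised ones. Its averaged log2 fold change was small, 0.52 ± 0.15 (adjusted p = 0.0251), and in exercised fish it was 0.67 ± 0.22 (adjusted p = 0.0541).

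The other 3 transcription factor genes were not called for age. The gene runx3 encodes a factor of cytotoxic T cells and, in mice, of sensory neurons. runx3 (ENSDARG00000052826) had 5.89, 0.93, 0.849, 2.31 and 1.81 CPM in 3-year exercised libraries, against 0.624, 0.714, 0.709, 0.31 and 0.531 CPM in 1-year exercised ones. The 3-year unexercised libraries had 1.16, 4.62, 4.27, 1.08 and 0.917 CPM, against 5.85, 0.865, 0.606, 0.476 and 0.742 CPM in 1-year unexercised ones. Exercised libraries did not overlap between ages (log2 fold change 2.02 ± 0.74, adjusted p = 0.0882), and 1-year unexercised replicate 1, at 5.85 CPM, lay above all 5 of the 3-year unexercised libraries. The factor gene gata3 had averaged log2 fold change -0.32 ± 0.15 (adjusted p = 0.156), with 42.3 to 108 CPM in 3-year exercised, 59.3 to 139 CPM in 3-year unexercised, 93.3 to 128 CPM in 1-year exercised and 103 to 138 CPM in 1-year unexercised libraries. The B cell identity factor gene pax5, which also patterns the midbrain and hindbrain in the embryo, had 0.34 ± 0.22 averaged (adjusted p = 0.312).

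Among the 3 B cell receptor signalling genes tested, the adaptor blnk and the kinase btk rose with age in exercised fish and averaged. The third, syk, did not pass. Of all genes, 6.71% and 9.61% were called higher in these comparisons. Btk is also used by myeloid cells. btk (ENSDARG00000004433) had 5.85, 3.72, 2.97, 4.57 and 4.12 CPM in 3-year exercised libraries, against 1.81, 2.1, 1.39, 1.69 and 1.29 CPM in 1-year exercised ones. Without exercise, 3-year libraries had 2.39, 5.2, 3.97, 2.84 and 3.55 CPM, against 4.49, 2.2, 2.23, 1.58 and 1.69 CPM in 1-year unexercised ones. The exercised libraries of both ages did not overlap (log2 fold change 1.36 ± 0.28, adjusted p = 0.00847), and the unexercised ones did (0.56 ± 0.28, adjusted p = 0.379). Blnk links the B cell receptor kinase to its targets. blnk (ENSDARG00000042722) had 2.69, 1.13, 1.5, 1.96 and 1.17 CPM in 3-year exercised libraries, against 0.361, 0.58, 0.322, 0.413 and 0.598 CPM in 1-year exercised ones. For unexercised fish the 3-year libraries held 1.39, 3.44, 1.32, 0.898 and 1.91 CPM, against 1.77, 0.685, 0.638, 0.806 and 0.641 CPM in 1-year unexercised ones. Exercised libraries did not overlap between ages (log2 fold change 1.89 ± 0.39, adjusted p = 0.00847). For syk the averaged log2 fold change was 0.10 ± 0.08 (adjusted p = 0.426), and its libraries ranged from 29.9 to 49.2 CPM. The defining B cell genes cd79a and cd79b held 0.0322 to 0.994 CPM and 0.0337 to 0.340 CPM in any library, below the filter, so no test was made for them.

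The recombination genes rag1 and rag2, which neighbour each other in the RefSeq annotation, had negative log2 fold changes with age and were not called. rag1 (ENSDARG00000052122) had 1.58, 0.507, 0.294, 0.237 and 0.292 CPM in 3-year exercised libraries, against 0.0656, 0.491, 4.29, 0.723 and 0.398 CPM in 1-year exercised ones. In 3-year unexercised libraries it had 0.564, 0.319, 0.227, 0.251 and 0.153 CPM, against 2.18, 0.288, 0.255, 0.256 and 0.438 CPM in 1-year unexercised ones. Most libraries were below 1 CPM. The highest values, 4.29 CPM in 1-year exercised replicate 3 and 2.18 CPM in 1-year unexercised replicate 1, stood beside a retina and pineal score (the mean log2 CPM of that marker list) of 3.67 in that exercised library and a muscle score of 5.27 in that unexercised library, whose part in the values was not tested. The averaged log2 fold change was -1.10 ± 0.61 for rag1 (adjusted p = 0.234) and -0.32 ± 0.19 for rag2 (adjusted p = 0.282). rag2 (ENSDARG00000052121) had 0.552, 1.18, 1.47, 1.42 and 1.17 CPM in 3-year exercised libraries, against 1.81, 1.29, 1.45, 2.17 and 1.59 CPM in 1-year exercised ones. Among unexercised fish, the 3-year libraries had 2.09, 1.66, 1.21, 1.54 and 1.11 CPM, against 2.01, 1.15, 2.39, 1.5 and 1.18 CPM in 1-year unexercised ones. The 2 ages overlapped for rag2 in both pairs.

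Of the cytotoxic effector genes, the perforin gene prf1.1, whose product makes pores in target cells, had an averaged log2 fold change of 1.38 ± 0.48 (adjusted p = 0.0549). It ranged from 0.425 to 2.39 CPM in 3-year exercised libraries, 0.191 to 2.45 CPM in 3-year unexercised, 0.0967 to 0.536 CPM in 1-year exercised and 0.110 to 1.12 CPM in 1-year unexercised libraries. For nccrp1 the averaged log2 fold change was -0.21 ± 0.15 (adjusted p = 0.362), with 60.8 CPM in 1-year unexercised replicate 1 against 33.5 CPM or less in all other libraries. The gene neighbours ckma, a muscle creatine kinase gene, in the RefSeq annotation, and that library had a muscle score of 5.27; the part of muscle in its value was not tested.

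Among neutrophil genes 2 of 6 rose, in exercised fish and in the average, beside 6.71% and 9.61% of all genes. The gelatinase gene mmp9 is made by neutrophils and other cells. mmp9 (ENSDARG00000042816) had 12.7, 7.83, 7.68, 7.56 and 4.88 CPM in 3-year exercised libraries, against 4.59, 4.55, 5.51, 4.47 and 4.85 CPM in 1-year exercised ones. The 3-year unexercised libraries had 6.34, 6.6, 8.74, 6.86 and 6.73 CPM, against 5.17, 4.69, 8.49, 5.24 and 5.73 CPM in 1-year unexercised ones. Its exercised ages overlapped slightly, with 1-year exercised replicate 3 above 3-year exercised replicate 5 (log2 fold change 0.76 ± 0.20, adjusted p = 0.0234; averaged 0.51 ± 0.14, adjusted p = 0.0188). The metalloprotease gene adam8a is known from mammalian leukocytes. adam8a (ENSDARG00000001452) had 4.89, 2.48, 1.99, 2.13 and 1.23 CPM in 3-year exercised libraries, against 1.08, 0.67, 0.871, 1.1 and 1.1 CPM in 1-year exercised ones. Without exercise, 3-year libraries had 2.39, 3.38, 2.61, 1.62 and 1.61 CPM, against 2.42, 0.649, 2.11, 1.14 and 0.742 CPM in 1-year unexercised ones. The exercised libraries did not overlap between ages (log2 fold change 1.39 ± 0.39, adjusted p = 0.0302; averaged 1.05 ± 0.27, adjusted p = 0.0135).

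The neutrophil gene csf3r, the receptor of granulocyte colony-stimulating factor, had an averaged log2 fold change of 0.68 ± 0.26 (adjusted p = 0.0748), with 2.48 to 4.75 CPM in 3-year exercised, 2.26 to 5.20 CPM in 3-year unexercised, 0.929 to 2.48 CPM in 1-year exercised and 1.14 to 5.48 CPM in 1-year unexercised libraries. The lysozyme gene lyz, a marker of zebrafish neutrophils and macrophages, was uneven. lyz (ENSDARG00000057789) had 2.65, 11.3, 0.294, 0.919 and 0.497 CPM in 3-year exercised libraries, against 2.33, 0.402, 1.16, 0.688 and 0.432 CPM in 1-year exercised ones. For unexercised fish the 3-year libraries held 0.962, 12, 1.48, 1.47 and 12.6 CPM, against 4.7, 0.216, 2.58, 3.99 and 1.18 CPM in 1-year unexercised ones. The log2 fold change was 1.4 ± 0.69 averaged (adjusted p = 0.179), and 3 libraries, all of 3-year fish, held 11.3 to 12.6 CPM where the others held 4.70 CPM or less. The cytokine gene il1b had 0.37 ± 0.19 averaged (adjusted p = 0.204). il1b (ENSDARG00000098700) had 4.93, 2.7, 4.74, 4.45 and 2.49 CPM in 3-year exercised libraries, against 2.3, 3.13, 3.29, 2.68 and 2.19 CPM in 1-year exercised ones. In 3-year unexercised libraries it had 2.75, 3.76, 2.5, 2.37 and 4.62 CPM, against 2.55, 4.14, 1.72, 1.83 and 3.41 CPM in 1-year unexercised ones. The ages overlapped in both pairs. For mmp13a, a collagenase gene, the averaged value was -0.08 ± 0.56 (adjusted p = 0.947).

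No gene of the list was called for exercise at either age. At 3 years 0 were called, with 0 at an unadjusted p below 0.05 and 0 with DESeq2, where 0.0283% of all genes were called, 8.09% had an unadjusted p below 0.05 and 0.567% were called with DESeq2. The median log2 fold change, exercised over unexercised, was 0.23 at 3 years, beside 0.005 for all genes. Of the 28 values 19 were positive, beside 51.1% of all genes. At 1 year 0 were called, with 3 (mmp13a, blnk and runx3) at an unadjusted p below 0.05 and 0 with DESeq2, where 0.0189% of all genes were called, 11.4% had an unadjusted p below 0.05 and 1.27% were called with DESeq2. The 3 of 28 at an unadjusted p below 0.05 are thus near the share of all genes. The median was -0.50, beside -0.024 for all genes, and 24 of 28 values were negative, where 45.2% of all genes were positive. For the 22 lymphocyte genes alone the median was -0.45, and 0.05 without 1-year unexercised replicate 1. At 3 years the lymphocyte median was 0.24, and it was -0.07 without exercised replicate 1 and 0.83 without unexercised replicate 2. Groups did not overlap for 0 of the 28 genes at 3 years and 1 at 1 year (blnk), where 1.75% and 1.88% of all genes did not. Averaged over both ages, 0 were called with 2 at an unadjusted p below 0.05, 0 with DESeq2, beside 0.905% of all genes called, 13.8% with an unadjusted p below 0.05 and 3.22% called with DESeq2.

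**Figure D4:**
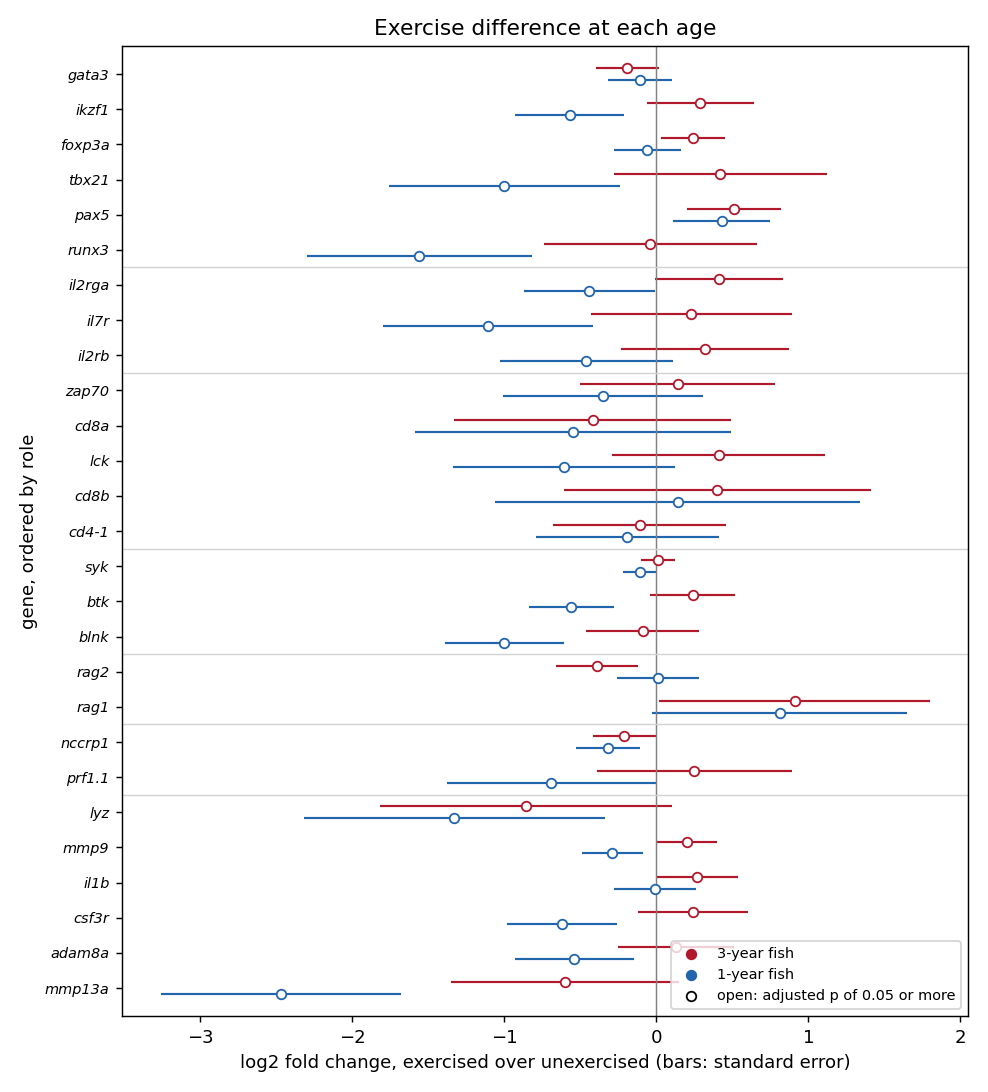
Log2 fold change of exercised over unexercised fish for 27 of the 28 genes (horizontal axis; genes by role on the vertical axis), at 3 years (dark red, upper point) and 1 year (blue, lower point), with standard errors. All points are open, since no gene passed the test at either age.

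The 3 genes with an unadjusted p below 0.05 at 1 year each had a negative fold change, exercised over unexercised. The collagenase gene mmp13a had 0.361, 0.313, 0.193, 0.103 and 0.498 CPM in 1-year exercised libraries, against 1.53, 0.721, 5.33, 0.476 and 0.135 CPM in 1-year unexercised ones. The groups overlapped, with 5.33 CPM in unexercised replicate 3 the highest value (log2 fold change -2.47 ± 0.79, adjusted p = 0.251), and the fold change was -1.27 without that library. At 3 years mmp13a had 0.773, 0.535, 0.523, 0.652 and 0.205 CPM in exercised libraries, against 0.199, 1.56, 0.53, 0.323 and 1.45 CPM in unexercised ones, and these overlapped too. For runx3 the corresponding fold change was -1.56 ± 0.74 (adjusted p = 0.435), and it was -0.21 without 1-year unexercised replicate 1. The fold change of blnk was -1.0 ± 0.39 (adjusted p = 0.351), and all 5 of its 1-year exercised libraries lay below all 5 unexercised ones.

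The 3 genes with the smallest p at 3 years did not pass either. The factor gene pax5 had 1.1, 0.789, 1.47, 0.978 and 0.994 CPM in 3-year exercised libraries, against 0.431, 0.478, 0.87, 1.11 and 0.841 CPM in 3-year unexercised ones. The groups overlapped (log2 fold change 0.51 ± 0.31, adjusted p = 0.75). At 1 year pax5 had 0.919, 0.982, 0.484, 1.1 and 0.598 CPM in exercised libraries, against 0.306, 0.685, 0.766, 0.623 and 0.641 CPM in unexercised ones. For rag2 and foxp3a the fold changes were -0.39 ± 0.27 (adjusted p = 0.812) and 0.24 ± 0.21 (adjusted p = 0.887).

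The exercise effect at 3 years minus that at 1 year was called for 0 of the 28 genes, with 0 at an unadjusted p below 0.05 and 0 with DESeq2, where 0.00472% of all genes were called, 4.73% had an unadjusted p below 0.05 and 0.0572% were called with DESeq2. The median difference was 0.59 on the log2 scale, beside 0.009 for all genes. Of the 28 values 26 were positive, beside 51.6% of all genes. For the 22 lymphocyte genes the median was 0.64, and 0.18 to 1.38 with 1 library left out. It was negative without the 9 libraries of high muscle, epidermis, retina or pituitary scores, as given below. The smallest p was that of btk, with a difference of 0.80 ± 0.39 (edgeR adjusted p = 0.982).

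Other immune genes, from lists that hold none of the 28, were called in the same age comparison in exercised fish. Some genes of these lists reached 10 counts in few libraries, such as cd27 in 5 and cd37 in 7. Whether each gene passed the filter within both ages was not examined, so the counts can include genes that passed through 3-year libraries alone. In unexercised fish, 0 genes were called in the lists of other T cell, other B cell and other neutrophil genes. The lists of shared white cell genes and of microglia and macrophage genes also had 0, beside 0.58% of all genes called. The medians of these lists lay between 0.25 and 0.75. In exercised fish, 8 of 27 other T cell genes that passed the filter rose and 1 fell, beside 6.71% of all genes called higher. Among those that rose were themis, a T cell signalling adaptor (log2 fold change 3.00 ± 0.75, adjusted p = 0.0185), and txk, a Tec kinase (2.14 ± 0.47, adjusted p = 0.011). The gene that fell was rorc, a nuclear receptor gene that also belongs to the circadian clock family (-1.15 ± 0.36, adjusted p = 0.0446). Of 21 other B cell genes 8 rose and 0 fell, including irf4a (2.74 ± 0.51, adjusted p = 0.00596), a factor of activated lymphocytes, and the immunoglobulin heavy chain gene ighm (3.05 ± 0.68, adjusted p = 0.0115). Immunoglobulin copies may share reads, so ighm is uncertain. The ighm level was 16.6, 7.33, 11.2, 4.65 and 7.90 CPM in 3-year exercised libraries, against 0.591, 2.37, 1.71, 0.861 and 0.266 CPM in 1-year exercised libraries. These groups did not overlap.

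Beside 6.71% of all genes called higher, 11 of 28 other neutrophil genes rose in exercised fish and 0 fell. Among the 11 were itgb2, the beta 2 integrin chain of white cells (log2 fold change 1.83 ± 0.37, adjusted p = 0.00748), and hck, a Src-family kinase (1.52 ± 0.34, adjusted p = 0.0118). The list holds genes of white cells in general, such as itgb2, and its calls do not single out neutrophils. Below the filter lay 7 genes of the list, among them cxcr1, cxcl8a and scpp8. Of the neutrophil genes described above, mmp9 and adam8a were called in exercised fish, and lyz, csf3r, mmp13a and il1b were not. Of 17 genes shared by white cells, 15 were called higher and 0 lower (median 1.5). For ptprc, the CD45 phosphatase gene, levels were 113, 30.1, 28.1, 58.2 and 61.4 CPM in 3-year exercised libraries, against 15.9, 20.5, 15.7, 13 and 14.8 CPM in 1-year exercised libraries. These groups did not overlap (1.86 ± 0.41, adjusted p = 0.0111), beside 6.96% of all genes. Unexercised libraries overlapped for ptprc, with 32.1 to 121 CPM at 3 years and 14.2 to 39.7 CPM at 1 year.

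Markers of other cells moved with these genes in part. In exercised fish, 6.71% of all genes were called higher and 10.6% were called in either direction. The 23 microglia and macrophage genes that passed the filter had 15 called higher and 0 lower in exercised fish (median 1.23), with a summed level of 1820 to 4130 CPM in 3-year exercised, 1340 to 3480 CPM in 3-year unexercised, 932 to 1210 CPM in 1-year exercised and 799 to 2210 CPM in 1-year unexercised libraries. Of the 17 neuronal genes 3 were called lower in exercised fish (median -0.24) and 5 in the average (median -0.19), and none higher. In the average, 16.9% of all genes were called in either direction. Of 17 muscle genes 2 were called higher, and so were all 3 pituitary genes that passed the filter, where 8 others did not. The summed muscle level was 288 to 1260 CPM in 3-year exercised and 257 to 625 CPM in 1-year exercised libraries. For pituitary genes it was 1.83 to 315 CPM and 0.967 to 2.31 CPM. Only 3-year exercised replicate 1 had a high pituitary score, so those calls do not show a change of the whole group. Of 10 red blood cell genes 2 were called lower and none higher, with a summed level of 297 to 492 CPM in 3-year exercised, 228 to 464 CPM in 3-year unexercised, 271 to 464 CPM in 1-year exercised and 239 to 533 CPM in 1-year unexercised libraries. The part of these other cells in the results above was not tested.

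The libraries that led the list differed in these markers. Of the 28 genes described here, 22 had their group's highest value in 3-year exercised replicate 1, 18 in 3-year unexercised replicate 2 and 20 in 1-year unexercised replicate 1. The muscle score, the mean log2 CPM of the list, was 4.94 in that 3-year exercised library, 1.31 in the 3-year unexercised one and 5.27 in the 1-year unexercised one, beside a median of 1.54 over all libraries. The pituitary score was 6.38 in 3-year exercised replicate 1 and 0.25 or less in all others, and the epidermis score was 4.75 in 1-year unexercised replicate 1. The 3-year unexercised replicate 2 had an epidermis score of 1.68 and a pituitary score of -0.60. Their part in the list's values was not tested.

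**Figure D5:**
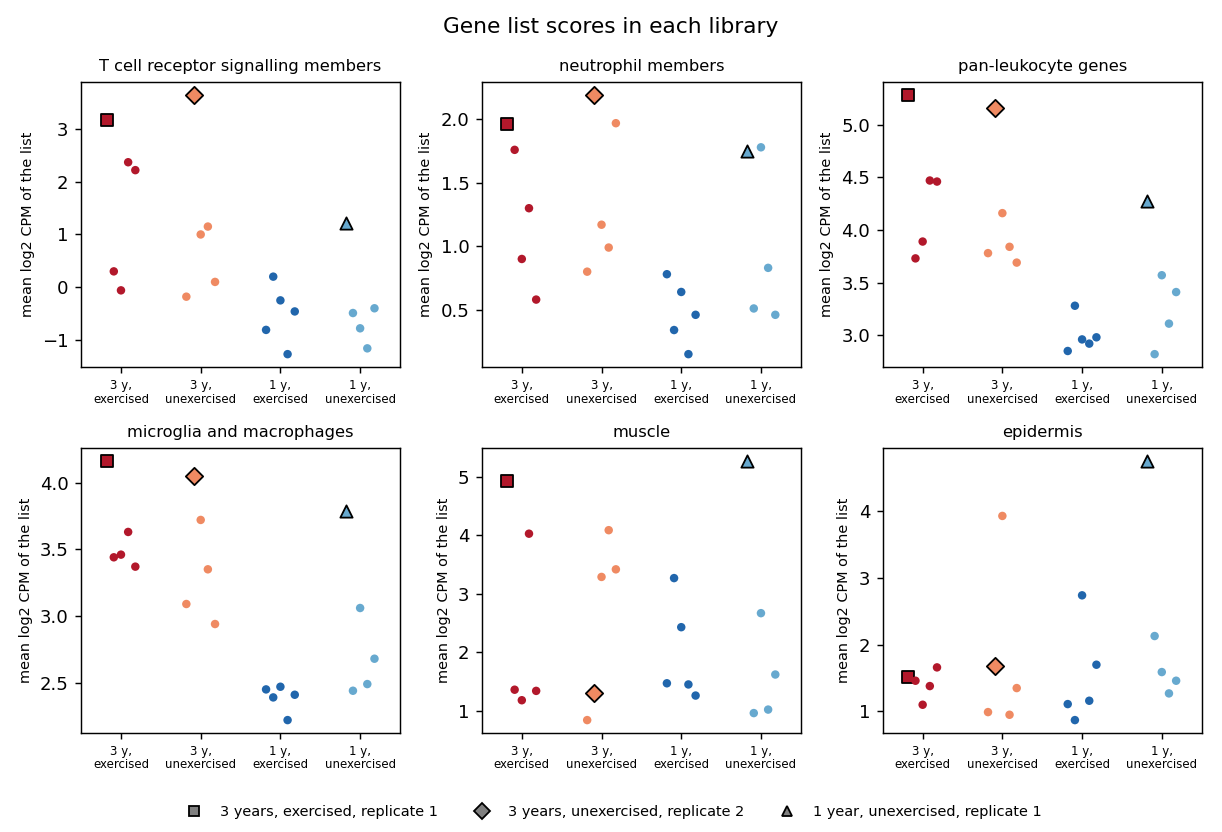
Score (mean log2 CPM of a list's genes, vertical axis) of 6 gene lists in each library, by group. Square, diamond and triangle mark the 3 libraries that led the 28 genes; all 3 were high in the white cell lists, and the square and the triangle were high in muscle while the diamond, at 1.31, was not.

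The count of genes called in exercised fish moved with the libraries in the fit. Without 3-year exercised replicate 1, 4 of the 28 genes (blnk, btk, ikzf1 and il2rga) were called, and 993 genes of the whole table, against 2245 with all libraries. Without 1-year exercised replicate 4 the count was 5, and it was 6 without replicate 1, 3 or 5 of that group. The whole table then had 1192 to 1526 called genes. These 4 genes were called in each of those fits. They do not single out lymphocytes, since Btk is also used by myeloid cells. In the same comparison 15 of 23 microglia and macrophage genes were called higher, and the part of those cells was not tested. Over the 10 fits that left out 1 library, the call of tbx21 was lost in 9, lck in 8, cd8a in 7, adam8a in 6, il7r in 5, mmp9 in 2 and il2rb in 1. Without the 9 libraries whose muscle, epidermis, retina or pituitary score was over 1.5 above the median of all libraries, 0 of the 28 were called with edgeR, with 12 at an unadjusted p below 0.05 (beside 15.7% of all genes), and 8 genes of the whole table were called. That fit had 2 libraries of 3-year exercised, 2 of 3-year unexercised, 3 of 1-year exercised and 4 of 1-year unexercised fish. The median log2 fold change was then 1.17, and 22 of 28 values were positive. Without the 3 libraries that led the list, 11 of 28 were called in exercised fish, beside 1533 in the whole table. Averaged over exercise, where shares of all genes are of calls in either direction, the count was 15 without 3-year exercised replicate 1 (14.3%). It was 11 without the 9 libraries (4.67%) and 18 without the 3 leading libraries (14.3%), against 16 with all libraries (16.9%).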

How the data were processed

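Brain RNA of 20 zebrafish libraries was sequenced in 4 groups of 5. Per the labels' protocols, the TruSeq RNA v2 kit was used, which does not mark strand. Reads of a gene and of an antisense partner therefore cannot be told apart by strand. Tools listed in the submitters' processing notes were STAR 2.4.1d, featureCounts 1.4.6-p4 and bcl2fastq 1.8.4, with genome build GRCz10. The authors deposited whole-number read counts for 32105 genes, which were tested, and RPKM values. In the deposited RPKM table the implied gene length of a gene varied between libraries by a median CV of 13.8% with each library's own total as divisor, and by 0.00217% with the 20 totals applied in turn down the table. That table therefore served only to obtain gene lengths, and RPKM was recomputed. The sources used here do not say how reads shared by near-identical copies were counted.

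Symbols came from a reference table that matched 26269 identifiers and writes some of them in upper case. Of the 31 matched genes, 19 overlap another gene in the RefSeq annotation (GRCz12tu, used for gene neighbours only). The genes and lists were chosen with earlier results of these data known. Genes with 10 or more counts in 5 or more libraries were kept. edgeR 4.0.16 (R 4.3.3) was run with TMM scaling, a mean per group over all 20 libraries, robust quasi-likelihood F-tests and Benjamini-Hochberg adjustment over 21207 genes, for 7 contrasts. The script was tested on simulated data with 200 changed genes. Errors of fold changes are standard errors from the fold change and F statistic. Levels are CPM on TMM-scaled totals; list scores are mean log2 CPM with a prior count of 2. Alternatives were relative log expression (RLE) size factors, DESeq2 1.42.0, no filter, filterByExpr, the compared groups alone, each library left out, and libraries of high tissue scores left out. Leaving out the 3 libraries that led the list was chosen after seeing the data. No pair of libraries shared over 0.662% of equal counts over 14793 genes, so none was treated as a copy. Values in every library are given for genes called in any contrast, for the 3 smallest p of a pairwise contrast, and for a defining gene of a role. The values of 1 of the 28 genes are not reported here; it is included in the counts and medians.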

Additional observations from a re-analysis of the deposited data

Results flagged for a closer look

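In 14 of 112 sets of 5 libraries (28 genes in 4 groups), the highest or lowest library lay apart from the rest of its group by more than 0.71 of the group's range on the log scale, Dixon's limit for 5 values. For independent sets of normally distributed values, chance gives about 1 such set in 20. The 112 sets share the same 20 libraries and are not independent, so the count of 14 cannot be judged by that share. In 8 of the 14, the library was 1-year unexercised replicate 1, with 5.85 CPM of runx3, 4.36 CPM of lck, 5.14 CPM of zap70, 1.60 CPM of cd4-1, 1.77 CPM of blnk, 2.18 CPM of rag1 and 60.8 CPM of nccrp1 as high values, and 0.306 CPM of pax5 as a low one. Its muscle score was 5.27 and its epidermis score 4.75, the highest of all libraries for both; their part in these values was not tested.

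In 3-year unexercised fish, replicate 2 stood high for tbx21 (4.94 CPM) and il2rga (9.85 CPM), and replicate 3 for mmp9 (8.74 CPM). In 3-year exercised fish, replicate 1 stood low for rag2 (0.552 CPM) and replicate 3 for csf3r (2.48 CPM). In 1-year exercised fish, replicate 4 stood low for lck (0.516 CPM).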

How the results depend on the processing

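Shares of all genes in this section count calls in either direction. With a library left out, 4 to 13 of the 28 genes were called for age in exercised fish, beside 4.7% to 10.6% of all genes. Averaged over exercise the counts were 15 to 19, beside 14.0% to 20.1% of all genes. In unexercised fish, where 0.368% to 1.21% of all genes were called, and for exercise, 0 were called. Without the 9 libraries of high muscle, epidermis, retina or pituitary scores, 0 were called in exercised fish, beside 0.0394% of all genes. That fit had fewer libraries. In unexercised fish, 1 gene was called with DESeq2 (cd8a; 2.54% of all genes) and 1 without the 3 leading libraries (il2rga; 0.693%), instead of 0. In exercised fish, RLE size factors gave 12 (11.2% of all genes), filterByExpr 12 (10.6%) and no filter 9 (7.28%). The compared groups alone gave 16 (11.2%) and DESeq2 17 (16.2%). No fold change reported for a called gene turned its sign. The lymphocyte median for age in unexercised fish, 0.94, was 0.37 without 3-year unexercised replicate 2, 1.58 without 1-year unexercised replicate 1 and 2.12 without the 9 libraries. Without those 9, the lymphocyte median for exercise at 3 years was -0.59 instead of 0.24, the neutrophil one -0.49 instead of 0.17, and the lymphocyte difference of exercise effects -0.62 instead of 0.64; without 3-year unexercised replicate 2 that difference was 1.38. The 3-year libraries left without those 9 were exercised replicates 3 and 5 and unexercised replicates 1 and 2. Of these, unexercised replicate 2 held the highest mean of the lymphocyte genes in any library, 2.89 on the log2 CPM scale. The cause of these shifts was not tested. Genes below 1 CPM rest on few counts. No paired analysis was possible because replicate numbers follow the order of deposit and tie no library to another across groups.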
